A study of Caenorhabditis elegans with 2 samples.

Results

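The nuclear transfer RNA (tRNA) genes of Caenorhabditis elegans were examined in a chromatin immunoprecipitation sequencing (ChIP-seq) map of the tagged product of gene R02D3.7, which the annotation names rcat-1. All genes of biotype tRNA on chromosomes I, II, III, IV, V and X of the WBcel235 assembly were taken, which gave 612 of 46890 annotated nuclear genes. Each gene was extended by 200 bp on each side, and it counted as listed when the summit of a deposited region, the point of highest signal within it, fell inside that window. The rule that picks the genes refers to the annotation and to no value in the lists. Of the 612 genes, 276 lie on X, 78 on V, 71 on IV, 66 on I, 64 on III and 57 on II.

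The animals were whole third-stage larvae (L3) of strain OP218, of pooled male and female sex. Both libraries come from this strain, which carries the allele unc-119(ed3) on chromosome III together with wgIs218, a transgene for eGFP-tagged R02D3.7. They are biological replicates 1 and 2 of 1 group, and no control sample was analysed here. Whether a site depends on the tagged protein or would appear with any tagged protein cannot be told apart, and "listed" means only that a region was deposited there. Whole animals mix all tissues, so a region cannot be assigned to a cell type. Regions came from a list for each replicate (30000 regions for replicate 1 and 29367 for replicate 2), a list for the pooled replicates (30000 regions) and a list of 1584 regions kept for their irreproducible discovery rate (IDR), which measures whether ranks of regions repeat between replicates. Read depth is unknown, as is the scale of the signal that ranks the regions.

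tRNA genes are transcribed by RNA polymerase III from a promoter that lies inside the gene. Transcription factor TFIIIC recognises the A box and the B box of this promoter and places TFIIIB just upstream of the start, and TFIIIB recruits the polymerase. Transcription ends at a short run of T after the gene. Nematode tRNA genes occur singly, in small groups, and inside introns of protein-coding genes, and many are identical copies of one another.

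The 6 sequences below are shown because they belong to the genes with an IDR summit that the results turn on. They were read from the RefSeq genome of WBcel235, and each is written on the transcribed strand of the gene with the A box and the core of the B box in capitals.
R04A9.t1, tRNA-Gln, the highest signal of all tRNA genes, chrX:410391-410462, + strand: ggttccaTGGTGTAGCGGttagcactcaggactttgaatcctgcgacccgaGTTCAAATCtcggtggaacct
C53C7.t1, tRNA-Ser, one gene of a divergent pair with a summit between them, chrX:13046578-13046659, + strand: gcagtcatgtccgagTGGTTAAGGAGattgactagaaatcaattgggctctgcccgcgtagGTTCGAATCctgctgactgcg
F57F5.t1, tRNA-Ile, the highest signal of a gene with no identical copy, chrV:12002176-12002260, + strand: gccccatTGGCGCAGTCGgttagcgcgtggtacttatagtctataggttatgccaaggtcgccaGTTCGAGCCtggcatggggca
C33G3.t2, tRNA-Lys, with a summit just upstream of its start, chrX:14063946-14064018, - strand: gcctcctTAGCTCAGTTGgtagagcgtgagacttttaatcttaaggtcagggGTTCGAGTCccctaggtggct
T23F1.t2, tRNA-Pro, the sequence with the most copies that have an IDR summit, chrV:15465225-15465296, - strand: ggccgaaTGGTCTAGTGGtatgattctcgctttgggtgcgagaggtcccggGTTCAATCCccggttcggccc
K11H12.t1, tRNA-Sec, the only selenocysteine tRNA gene annotated and the only gene with an IDR summit but no A box match, chrIV:658181-658266, + strand: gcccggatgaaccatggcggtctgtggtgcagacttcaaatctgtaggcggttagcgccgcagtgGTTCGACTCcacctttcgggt

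The motifs mark nearly all members. An A box match of 11 letters within the first part of the gene was found on the transcribed strand in 593 of the 612 genes (96.9%), and the B box core GTTCNANNC in 587 (95.9%). Among consecutive 72 bp stretches of the nuclear genome, read on both strands, 7.25% held the A box letters anywhere and 2.44% held the B box core. A run of TTTT lay within 20 bp after the gene in 602 genes (98.4%), within 20 bp before it in 116 (19.0%), and in a 20 bp stretch placed 300 bp farther downstream in 144 (23.5%). A match is a description of letters and not of a factor at the site.

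An IDR summit lay at 54 of the 612 tRNA genes (8.82%), against 0.74% of consecutive nuclear windows of 472 bp, the median length of the members' windows. These 54 genes stood at 47 IDR regions, of which 40 had 1 tRNA gene in reach and 7 had 2. The pooled list reached 369 genes (60.3%), against 13.4% of windows. The replicate 1 list reached 330 genes (53.9%) and the replicate 2 list 340 genes (55.6%), each against 13.3% of windows. Both replicates listed 237 genes (38.7%), and 161 genes were in no list. Among the 1584 regions of highest signal in each replicate taken alone, replicate 1 reached 50 tRNA genes (8.17%) and replicate 2 reached 59 (9.64%). The share of tRNA genes was thus above that of windows of equal length in each of the 4 lists, although most tRNA genes were outside the IDR list.

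Other short noncoding genes gave a reference for these shares. snoRNA genes, whose RNAs guide modification of other RNAs, had an IDR summit within 200 bp at 17.1% and a pooled summit at 48.3% of 346 genes. Genes of biotype snRNA, which include those for spliceosomal RNAs, had an IDR summit at 13.2% and a pooled summit at 42.6% of 129 genes. The tRNA genes stood below both classes in the IDR list and above both in the pooled list.

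The tRNA sites were regions of middle rank. No tRNA gene lay at the first 350 regions of the pooled list, a limit chosen after the values were seen because the first tRNA site ranks 351. Of the regions ranked 351 to 1584, 47 (3.81%) lay at tRNA genes, and of those ranked 1585 to 3000, 70 (4.94%). The share was 3.15% at ranks 3001 to 5000, 1.18% at 5001 to 10000, 0.79% at 10001 to 20000 and 0.52% at 20001 to 30000. Each replicate alone had 1 tRNA site among its first 350 regions, and in each the share was highest at ranks 1585 to 3000, with 3.88% in replicate 1 and 4.24% in replicate 2. The 47 IDR regions at tRNA genes had a median signal of 64.5 and a highest signal of 149, and 37 of them were below the median of all IDR regions, which was 82.2.

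**Figure D1:**
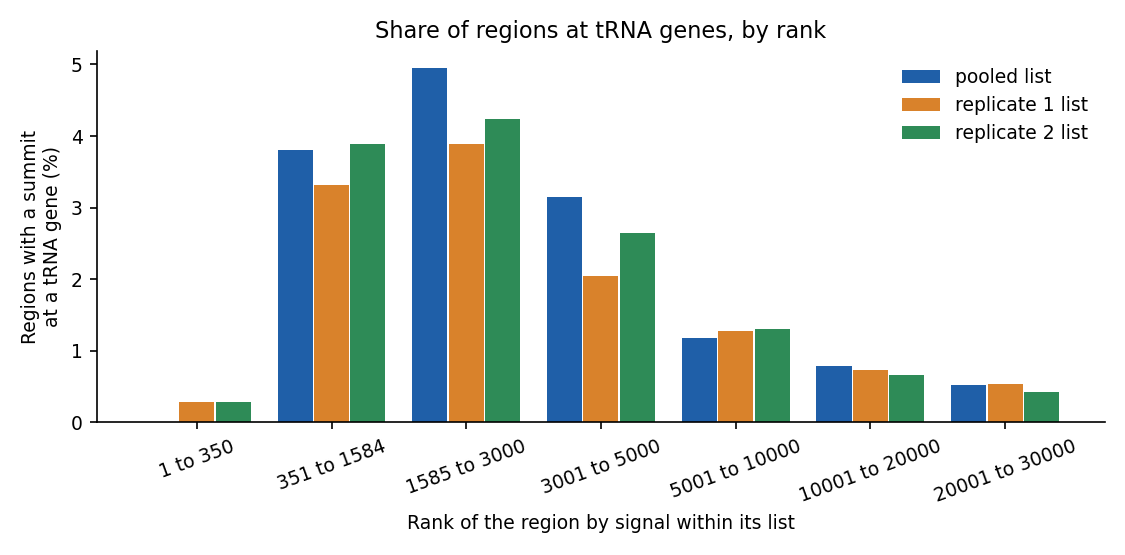
The bars give the percentage of regions whose summit fell at a tRNA gene (y axis) in each class of rank by signal (x axis), for the pooled list, replicate 1 and replicate 2. The share is 0% in the first class of the pooled list, highest at 4.94% in the class from 1585 to 3000, and 0.52% in the last.

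Summits at tRNA genes gathered at the gene start. Positions were counted by gene, so a summit shared by 2 genes counts at each, and the 54 IDR positions come from 47 regions. At these 54 genes the IDR summit had a median position of -28.5 bp from the first base of the gene, in the direction of transcription. The quartiles were -46.75 and 18 bp. The summit lay upstream at 37 genes, inside at 12 and downstream at 5. At the 369 genes with a pooled summit the median was -4 bp, with quartiles at -39 and 57 bp. That summit lay upstream at 191 genes, inside at 110 and downstream at 68. The 1584 highest regions gave a median of -20.5 bp in replicate 1 and -14 bp in replicate 2. Counted by gene, the pooled summits were thus spread over both sides of the start, and the IDR summits lay mostly upstream of it.

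In 50 bp bins, the bin from -50 to 0 bp held the most tRNA summits, with 40.8 IDR and 194 pooled summits per 1000 tRNA genes, against 5.16 IDR and 26.7 pooled summits per 1000 protein-coding genes in the same bin. At protein-coding genes the IDR summits were most frequent farther upstream, in the bin from -200 to -150 bp, with 9.56 per 1000 genes. The region itself overlapped the tRNA gene at 51 of the 54 genes with an IDR summit and at 363 of the 369 with a pooled summit. The 3 IDR regions that ended before reaching the gene were those of the 3 highest signals, at R04A9.t1, C28G1.t1 and Y38E10A.t1.

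**Figure D2:**
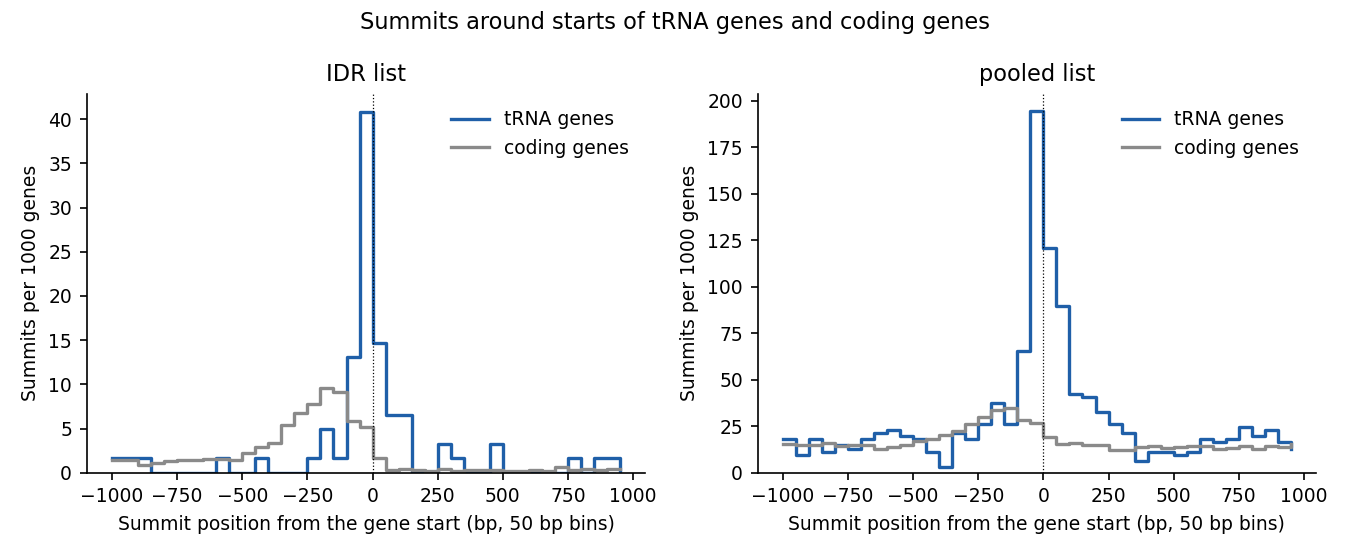
The lines give the number of summits per 1000 genes (y axis) in 50 bp bins around the gene start (x axis, bp in the direction of transcription, negative upstream) for tRNA genes and protein-coding genes, in the IDR list and in the pooled list. The tRNA line peaks in the bin just upstream of the start, at 40.8 in the IDR list and 194 in the pooled list, while the coding line has its broad maximum farther upstream.

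The 3 tRNA genes of highest signal had summits well upstream of the gene, in promoter windows of protein-coding genes (1000 bp upstream to 200 bp downstream of a transcript start). R04A9.t1, a tRNA-Gln gene in an intron of ZK1193.2 on the opposite strand, had an IDR signal of 149 at rank 351, a replicate 1 signal of 104 and a replicate 2 signal of 46.4, with the summit at -159 bp. C28G1.t1, a tRNA-Glu gene (X, 8836113 to 8836184) in the promoter windows of C28G1.2 and of sec-15, a subunit of the exocyst that tethers secretory vesicles, had an IDR signal of 147, with 69.7 in replicate 1 and 73.2 in replicate 2. Its summit lay at -132 bp. Y38E10A.t1, a tRNA-Ala gene (II, 12678314 to 12678385) in the promoter windows of Y38E10A.22 and Y38E10A.24, had an IDR signal of 132, with 12.5 in replicate 1 and 56.9 in replicate 2 and a summit at -199 bp. Its replicate 1 region ranked only 5239. At these 3 genes the listed point is nearer to the edge of the window than to the tRNA gene, and a site of the tRNA gene and a site of the coding promoter cannot be told apart there.

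The next members had summits closer to the gene. The divergent tRNA-Ser genes C53C7.t1 and C53C7.t2 stand 130 bp apart and shared 1 IDR region with a signal of 111, with 56.7 in replicate 1 and 51.6 in replicate 2. Its summit lay between them, at -59 bp of C53C7.t1 and -72 bp of C53C7.t2. F57F5.t1, a tRNA-Ile gene with a sequence found at no other tRNA gene, had an IDR signal of 106, with 44.4 in replicate 1 and 57.1 in replicate 2, and a summit inside the gene at 18 bp. It lies in the promoter windows of cpr-9, a cathepsin B-like protease gene, and gcy-33, a guanylate cyclase gene. C33G3.t2, a tRNA-Lys gene in neither a promoter window nor an intron, had an IDR signal of 97.9, with 51.1 in replicate 1 and 46.7 in replicate 2, and a summit at -40 bp.

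F41D9.t3, a tRNA-Asn gene, had an IDR signal of 96.6, with 49.0 in replicate 1 and 48.7 in replicate 2, and a summit at -61 bp. The divergent pair M02F4.t1 (tRNA-Gly) and M02F4.t2 (tRNA-Glu) shared a region with a signal of 96.4, with 47.5 in replicate 1 and 47.1 in replicate 2, and with the summit between the genes at -45 and -72 bp. The replicate signals were close in number at these sites. The median signal was 7.48 over the replicate 1 list and 10.1 over the replicate 2 list, so close numbers need not mean equal strength. The convergent pair T23F1.t1 (tRNA-Lys) and T23F1.t2 (tRNA-Pro) shared a region with a signal of 87.0, with 43.6 in replicate 1 and 44.9 in replicate 2, whose summit lay between the genes and so downstream of both, at 104 and 106 bp from their starts. R11.t1, a tRNA-Tyr gene, had an IDR signal of 86.7, with 54.6 in replicate 1 and 35.9 in replicate 2, and a summit at -28 bp.

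At the edge of the IDR list, the lowest listed members were F44A2.t1 with a signal of 51.5 and ZC449.t1 with 51.1. Just outside were C04E7.t1 (tRNA-Leu on X) with a pooled signal of 50.2 at rank 1616, F41A4.t1 (tRNA-Asp on IV) with 49.4 at rank 1655 and F49D11.t1 (tRNA-Gly on I) with 49.0 at rank 1669. Their summits lay at -50, -5 and -29 bp. The lowest listed members had summits inside the gene, at 1 bp in F44A2.t1 and 35 bp in ZC449.t1. The named members had the same signal and rank in the IDR list as in the pooled list. Close signals on either side of the limit therefore follow from the order by signal. The summits of the 3 members just outside the limit lay upstream of the gene.

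The share of tRNA genes with an IDR summit was higher on X than on the autosomes. An IDR summit lay at 31 of 276 tRNA genes on X (11.2%) and at 23 of 336 on the autosomes (6.85%). Over consecutive windows the order was the reverse, with 0.562% of X windows and 0.778% of autosomal windows holding an IDR summit. The same held at the starts of protein-coding genes, where windows of 472 bp held an IDR summit at 1.98% of X genes and 4.09% of autosomal genes. X holds 45.1% of the tRNA genes. Of the 47 IDR regions at tRNA genes, 27 (57.4%) were on X, against 145 of 1187 other IDR regions ranked 351 or lower (12.2%).

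The difference of 4.39 percentage points was measured in each replicate alone from its 1584 highest regions. Replicate 1 listed 10.1% of tRNA genes on X and 6.55% on the autosomes, with 0.517% of X windows and 0.785% of autosomal windows as background. Replicate 2 listed 13.4% on X and 6.55% on the autosomes, with 0.695% of X windows and 0.751% of autosomal windows. The 2 replicate differences, 3.60 and 6.86 points, had the same sign as the IDR difference and an SD of 2.31 points (n = 2). An SD of 2 values is too imprecise to weigh the difference, and the IDR list was made from the same 2 replicates. No test between X and autosomes was made, since genes are not replicates and the labels give 1 group. When the window was the gene alone, with 0 bp on each side, the difference was -0.27 points.

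The difference was not steady over the longer lists. The pooled list reached 62.0% of tRNA genes on X and 58.9% on the autosomes, against 11.7% of X windows and 13.7% of autosomal windows, and against 16.9% of X and 21.7% of autosomal coding starts. The whole replicate 1 list reached 52.5% on X and 55.1% on the autosomes, and the whole replicate 2 list 59.1% on X and 52.7% on the autosomes. The sign of the difference in the whole lists thus differed between replicates. Median signal, taken over listed genes only, was alike. The IDR median was 65.9 on X and 63.8 on the autosomes, and the pooled median was 26.8 on X and 26.4 on the autosomes. The upper quartile was higher on X, with 91.6 against 73.1 in the IDR list and 42.6 against 36.5 in the pooled list. The lower quartile was 59.7 against 55.7 in the IDR list and, in the other direction, 16.3 against 17.2 in the pooled list. Among the autosomes the IDR share ran from 3.03% on I (2 of 66 genes) to 14.0% on II (8 of 57 genes), so 1 autosome stood above X. On II, the 1584 highest regions of replicate 1 reached only 2 genes and those of replicate 2 reached 6.

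The difference was also measured by whether the gene sequence is shared. Of the genes that share their sequence with another tRNA gene, 29 of 219 on X (13.2%) and 17 of 250 on the autosomes (6.80%) had an IDR summit. Of the genes with a sequence of their own, 2 of 57 on X (3.51%) and 6 of 86 on the autosomes (6.98%) had one, a difference of the opposite sign that rests on 8 genes. Outside coding promoter windows the shares were 11.3% on X and 5.39% on the autosomes. How reads from identical copies were placed is not known, and its part in these shares was not tested.

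**Figure D3:**
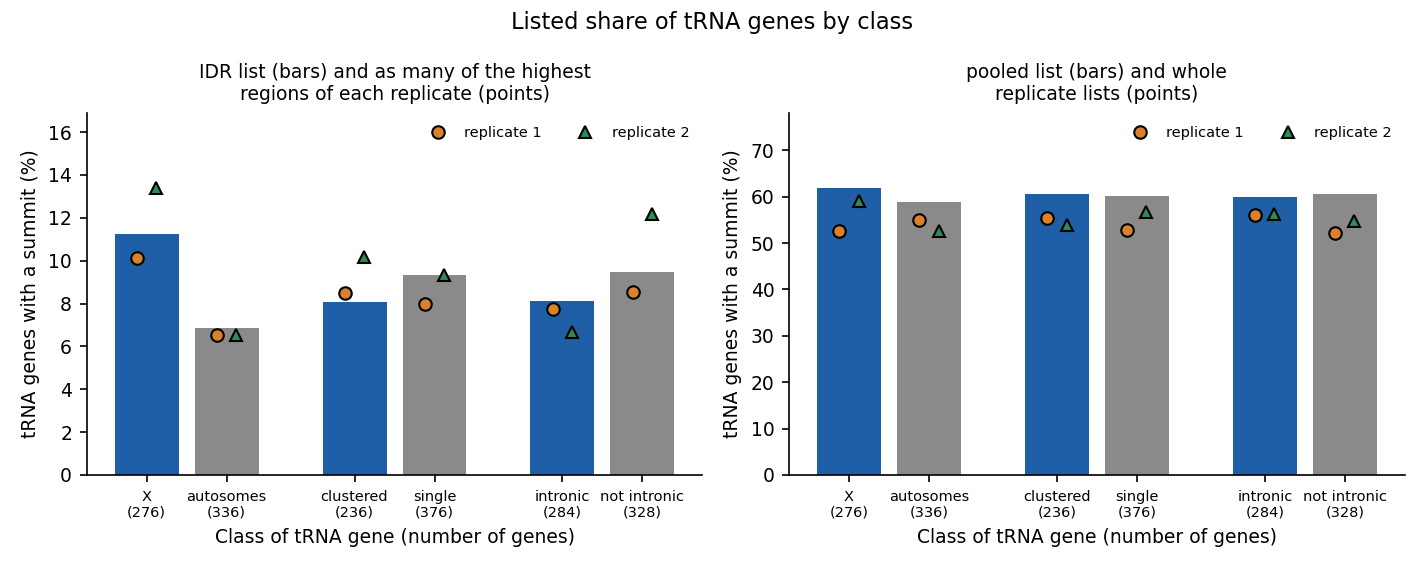
The bars give the percentage of tRNA genes with a summit (y axis) by class (x axis, number of genes in parentheses), in the IDR list on the left and in the pooled list on the right, and the points give each replicate alone. In the left panel X stands above the autosomes in the bars (11.2% and 6.85%) and in both replicates, whereas for clustered and single genes the bars and the points run in opposite directions.

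Clustered tRNA genes, those with another tRNA gene within 1000 bp, had shares close to those of single genes. The 236 clustered genes formed 100 clusters, 54 of them on X, of which 78 held 2 genes, 14 held 3 and 8 held 4 or more. An IDR summit lay at 19 clustered genes (8.05%) and at 35 of 376 single genes (9.31%). The 1584 highest regions of replicate 1 reached 8.47% of clustered and 7.98% of single genes, and those of replicate 2 reached 10.2% of clustered and 9.31% of single genes. The replicate differences of 0.50 and 0.86 points thus had the opposite sign to the IDR difference of -1.26 points. In the pooled list the shares were 60.6% for clustered and 60.1% for single genes.

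Counted by gene, the IDR share was lower in the larger clusters. An IDR summit lay at 3 of 80 genes in clusters of 3 or more (3.75%) and at 16 of 156 genes in clusters of 2 (10.3%). The pooled shares were 62.5% in clusters of 3 or more and 59.6% in clusters of 2. All 7 IDR regions that served 2 genes lay in clusters of 2 and count there at each gene. The 3 listed genes in clusters of 3 or more each lay in a different cluster. The order by gene therefore need not hold by cluster, which was not compared. On X, 8.15% of clustered and 14.2% of single genes had an IDR summit, and on the autosomes 7.92% of clustered and 6.38% of single genes had one. The 2 largest clusters, each of 6 genes on X, held no IDR summit. The cluster of F22F1.t2 to F22F1.t7 (X, 8154445 to 8156707), with tRNA-Ser, tRNA-Asp, tRNA-Met and tRNA-Ile genes, had a pooled summit at 5 genes and a highest pooled signal of 27.2. The cluster of 6 tRNA-His genes from F28H6.t2 to F28H6.t5 (X, 14135045 to 14137010) had a pooled summit at 1 gene, with a signal of 11.0. Equal cluster size thus went with unlike coverage.

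Neighbouring genes share windows, so a summit can serve 2 genes, and the 54 genes with an IDR summit are not 54 separate sites. When genes with overlapping windows were joined, 530 loci remained and 47 of them had an IDR summit. All 7 IDR regions that served 2 genes had their summit in the space between the genes. Of these pairs, 4 were divergent (C53C7.t2 and C53C7.t1, M02F4.t2 and M02F4.t1, W09D6.t2 and W09D6.t1, F46G11.t2 and F46G11.t1), 2 were in tandem (W09G10.t3 and W09G10.t2, F15G9.t1 and F15G9.t2) and 1 was convergent (T23F1.t1 and T23F1.t2). In all, 51 neighbouring pairs were divergent, 57 in tandem and 28 convergent. A pooled summit lay between the genes in 37.3% of divergent, 33.3% of tandem and 28.6% of convergent pairs. An IDR summit lay there in 7.84%, 3.51% and 3.57%. The median gap was 161 bp in divergent, 453 bp in tandem and 225.5 bp in convergent pairs. These shares are thus over unequal lengths, and no background of equal length was counted.

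tRNA genes inside introns of protein-coding genes had a slightly lower IDR share than those elsewhere. An IDR summit lay at 23 of 284 intronic genes (8.10%) and at 31 of 328 others (9.45%), whereas windows centred in introns held one in 0.4% of cases and windows centred elsewhere in 0.908%. The difference of -1.35 points was smaller than the SD of the replicate differences, 3.33 points (n = 2), which were -0.79 points in replicate 1 and -5.50 points in replicate 2. The pooled shares were 59.9% for intronic and 60.7% for other genes, against 14% of windows in introns and 13% of windows elsewhere. By strand, 10 of 122 genes opposite to the host (8.20%) and 13 of 162 on the strand of the host (8.02%) had an IDR summit. A pooled summit lay at 63.1% of opposite-strand and 57.4% of same-strand genes, a replicate 1 summit at 62.3% of opposite-strand and 51.2% of same-strand genes, and a replicate 2 summit at 56.6% of opposite-strand and 56.2% of same-strand genes. In replicate 2 alone, 6.69% of intronic and 12.2% of other genes were among the sites of the 1584 highest regions. The intronic share was thus the lower one in the IDR list and in the 1584 highest regions of both replicates, by an amount that differed between them. In the whole replicate lists it was the higher one. There replicate 1 reached 56.0% of intronic and 52.1% of other genes, and replicate 2 reached 56.3% and 54.9%.

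The host genes had unlike roles. C37A2.t1, a tRNA-Cys gene in an intron of the cyclin E gene cye-1, had an IDR signal of 81.4, with 24.2 in replicate 1 and 58.0 in replicate 2, and a summit at -33 bp. T28B4.t1, a tRNA-Phe gene in fbxl-4, which encodes an F-box protein, had 80.5, with 42.8 in replicate 1 and 32.2 in replicate 2, and a summit at -29 bp. K04C2.t3, a tRNA-Lys gene in brd-1, the partner of the worm BRCA1 protein, had 75.2, with 39.0 in replicate 1 and 34.5 in replicate 2, and a summit inside the gene at 23 bp. These 3 tRNA genes lie on the strand of the host.

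K11H12.t1, the tRNA-Sec gene in K11H12.8, had an IDR signal of 70.9, with 37.0 in replicate 1 and 40.0 in replicate 2, and a summit at -57 bp. The promoter window of K11H12.8, in which this tRNA gene lies, also held another IDR region, of rank 9. F47G6.t1, a tRNA-Arg gene in the myosin gene spe-15, had 67.7, with 24.5 in replicate 1 and 40.4 in replicate 2. Both lie on the strand of the host. On the opposite strand, after R04A9.t1 and after F41D9.t3 in the sulphate permease family gene sulp-3, came C02B4.t2 (tRNA-Tyr) in the nuclear hormone receptor gene nhr-17 with a signal of 65.9, K08E7.t1 (tRNA-Lys) in the P-glycoprotein gene pgp-1 with 65.3, and W09D6.t2 (tRNA-Pro) in rsa-2, a gene for spindle assembly, with 64.5.

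Some intronic tRNA genes lay in hosts whose own promoter was listed. The 284 intronic tRNA genes lay in 221 hosts, of which 14 (6.33%) had an IDR summit in the promoter window, against 7.72% of all protein-coding genes. Of the 23 intronic tRNA genes with an IDR summit, 5 had such a host (21.7%), namely C37A2.t1, K11H12.t1, R04A9.t1, F52H2.t1 and H08J11.t3, and of the 261 without an IDR summit, 16 had one (6.13%). These counts are not independent, because K11H12.t1, R04A9.t1, F52H2.t1 and H08J11.t3 lie in the promoter window of their own host. At R04A9.t1, F52H2.t1 and H08J11.t3 the region at the tRNA gene was also the highest region of the host promoter. Across all tRNA genes, 16 of 149 in a coding promoter window (10.7%) and 38 of 463 outside one (8.21%) had an IDR summit.

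Genes with identical sequences were listed differently. The 612 genes have 200 distinct sequences, of which 57 are shared by 469 genes and 143 belong to 1 gene each. An IDR summit lay at 46 of the 469 genes with a shared sequence (9.81%) and at 8 of the 143 with a sequence of their own (5.59%), and a pooled summit lay at 65.5% of the genes with a shared sequence and 43.4% of the genes with their own. The 46 genes fell in 24 of the shared sequences, which together have 309 genes, and in only 1 of these sequences did every copy have an IDR summit. The pooled list held some but not all copies in 38 of the 57 shared sequences, all copies in 12 and none in 7.

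The sequence printed for T23F1.t2 is carried by 24 tRNA-Pro genes, of which 6 had an IDR summit (T23F1.t2, W09D6.t1, W09D6.t2, F46G11.t1, F46G11.t2 and ZK899.t1) and 19 a pooled summit, with pooled signals from 12.4 to 87.0. The sequence of R04A9.t1 is carried by 15 tRNA-Gln genes, of which 2 had an IDR summit and 7 a pooled one, with signals from 14.5 to 149. The sequence of C33G3.t2 is carried by 14 tRNA-Lys genes, of which 3 had an IDR summit (C33G3.t2, T23F1.t1 and K04C2.t3) and 7 a pooled one. The commonest sequence belongs to 29 tRNA-Gly genes, of which only M02F4.t1 had an IDR summit and 21 had a pooled one. Copies with the same internal promoter thus ranged from no listing to the IDR list. The placing of reads from identical copies is not known, and its part in these listings was not tested.

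By amino acid and counted by gene, tRNA-Lys genes had the most IDR summits (8 of 46 genes), followed by tRNA-Pro (6 of 42), tRNA-Ala (6 of 34) and tRNA-Leu (5 of 39). This order need not hold by region. The tRNA-Pro genes W09D6.t1 and W09D6.t2 share 1 region, as do F46G11.t1 and F46G11.t2, and the tRNA-Ala genes F15G9.t1 and F15G9.t2. tRNA-Gly, the largest class, had 1 of 55. The tRNA-Val (31 genes), tRNA-Met (20 genes) and tRNA-Trp (12 genes) classes had none, although the pooled list held 61.3%, 65.0% and 66.7% of them. Over all 612 tRNA genes the IDR share was 8.82%, which comes to few genes in classes of this size. Differences between classes were not tested. Among classes of more than 20 genes the pooled share was highest for tRNA-Glu (73.2% of 41 genes) and lowest for tRNA-Gln (48.1% of 27 genes). The tRNA-His genes had 40.0% of 20 genes, and 6 of these form the cluster with 1 pooled summit described above. The 5 genes with no annotated amino acid had no pooled summit.

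**Figure D4:**
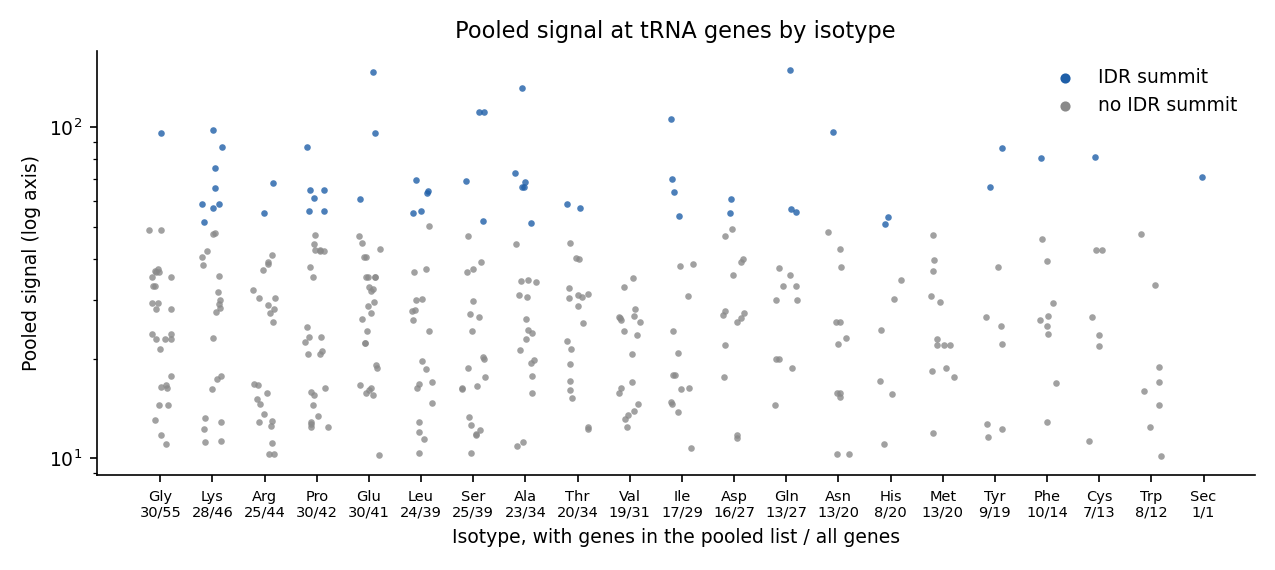
Each point is a tRNA gene in the pooled list, placed by amino acid (x axis, with the number of genes in the pooled list of all genes) and pooled signal (y axis, log scale, the authors' signal). Blue points have an IDR summit. The larger amino acid classes spread over much of the signal range, and the tRNA-Val, tRNA-Met and tRNA-Trp classes have no blue point.

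Few genes lacked the motifs of the internal promoter, and few of those without an A box match were listed. Of the 19 genes without an A box match, 1 had an IDR summit (K11H12.t1) and 4 a pooled one (21.1%), against 53 and 365 (61.6%) of the 593 genes with a match. The tRNA-Sec gene is known to depart from the usual tRNA form. Of the 25 genes without the B box core, 0 had an IDR summit and 12 a pooled one (48.0%), against 54 and 357 (60.8%) of the 587 with it. The 161 genes in no list still had an A box match in 146 cases (90.7%) and a B box core in 152 (94.4%).

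The replicates ranked tRNA genes moderately alike. Across the 237 genes listed in both, the signals of the replicates had a Spearman rho of 0.504 and a Pearson r of 0.623, given as a description because genes share regions and both lists share a control alignment. The rho was 0.607 across 106 genes on X and 0.397 across 131 on the autosomes. The replicate summits were a median of 54 bp apart, and 45.6% of the genes had them within 50 bp. Across the 54 genes with an IDR summit the rho was 0.206 and the median distance 41 bp.

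**Figure D5:**
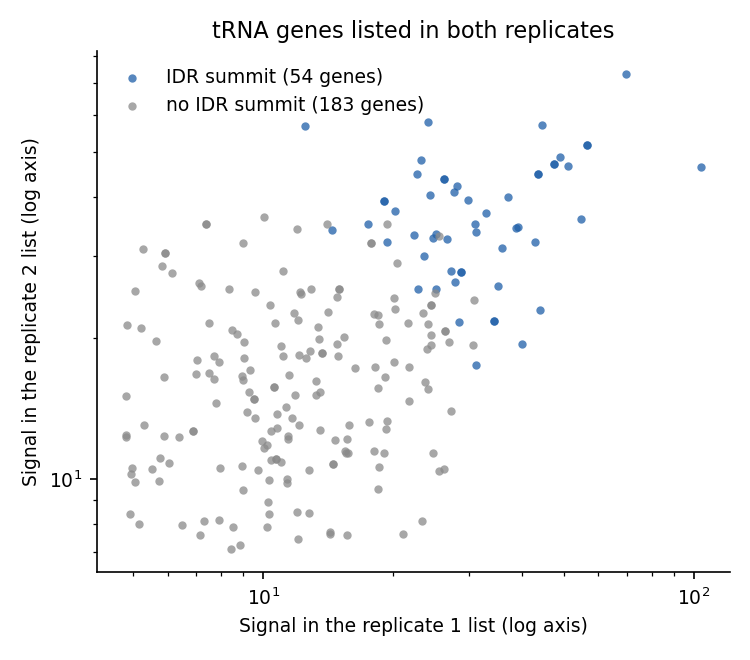
Each point is one of the 237 tRNA genes listed in both replicates, placed by its signal in replicate 1 (x axis, log scale) and in replicate 2 (y axis, log scale). The 54 genes with an IDR summit lie at the upper right, with Y38E10A.t1 far to the left at 12.5 in replicate 1 and 56.9 in replicate 2.

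Genes that make or process tRNA were counted at their own promoters. The list held 28 protein-coding genes for subunits of RNA polymerase III, its transcription factors, the snRNA-activating complex and tRNA processing and modification enzymes, and 3 of them (10.7%) had an IDR summit in the promoter window, near the 7.72% of all protein-coding genes given above. elpc-4, a subunit of the Elongator complex that modifies the tRNA wobble base, had an IDR signal of 110.5 at rank 530, with 71.7 in replicate 1 and 23.7 in replicate 2. tftc-1, a subunit of TFIIIC, had 58.7 at rank 1261, with 30.7 in replicate 1 and 28.9 in replicate 2, and pus-1, a tRNA pseudouridine synthase, had 51.4 at rank 1558, with 28.9 in replicate 1 and 24.7 in replicate 2. Just below the list stood snpc-4, a subunit of the snRNA-activating complex, with a pooled signal of 50.6, and mafr-1, the worm Maf1 repressor of RNA polymerase III, with 48.0. brf-1, a subunit of TFIIIB, was in none of the lists.

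Six-mers that mark the strongest regions were counted at tRNA genes, on either strand within 100 bp of the summit. The 10 six-mers with the largest excess over flanks in the first 350 IDR regions were taken, so their excess there is fixed by the choice, and several of them overlap one another. Of these, 8 had a lower share in the 47 IDR regions at tRNA genes than in the 1187 other IDR regions ranked 351 or lower, and 2 had a higher one. CGTAAA, the first of them, occurred in 1 region at tRNA genes (2.13%), against 117 of the other regions (9.86%), with 44.9% in the first 350. In flanks of equal length 500 bp away, CGTAAA had shares of 4.26% at tRNA genes and 9.06% at the other regions.

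The 2 six-mers with a higher share at tRNA genes were GCGAGA, in 15 of the 47 regions (31.9%) against 17.9% of the others and 27.4% of the first 350, and ACACTC, in 11 (23.4%) against 18.1% of the others and 27.1% of the first 350. GCGAGA is also part of the tRNA-Pro sequence printed for T23F1.t2, so a hit can be sequence of the tRNA gene itself. Six-mers within tRNA genes were not counted apart. In pooled regions below the IDR list, CGTAAA occurred in 25 of 323 at tRNA genes (7.74%, flanks 8.51%) and in 8.81% of those elsewhere (flanks 8.41%). The six-mers of the strongest regions thus differed in how often they occurred at tRNA genes.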

How the data were processed

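The data are peak lists on ce11 (WBcel235) from 2 ChIP-seq libraries of 1 group. The signal of each region and its summit offset in bp were deposited by the authors. Per the deposited list of files, each list was made from an alignment together with a control alignment that both replicates share, so the replicates are not fully independent. Not given in the sources used here are the caller, the aligner, the IDR threshold, the read depth and the treatment of reads with several matches. The counting error of a signal therefore cannot be estimated here. Signal served only to describe and rank regions within a list.

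The members, classes and gene lists were chosen with earlier results of these data known. Genes came from Ensembl release 115 and amino acids from RefSeq, which matched all 612 genes (5 without an amino acid), and 22 mitochondrial tRNA genes were left out. For each gene the region of highest signal with its summit in the window was taken. A gene was intronic when it lay whole in an intron of a protein-coding gene. Named genes are the 15 of highest IDR signal, the 5 highest on X and in each class, the 3 highest pooled genes without an IDR summit, the largest clusters and listed RNA polymerase III genes. Any other named gene was chosen after its values were seen. tRNA genes share regions and sequences and are not replicates, so shares are set beside windows and replicate lists without tests, and the spread between 2 replicates may be technical. Python 3.11.15, numpy 2.4.6, pandas 2.3.3 and scipy 1.17.1 were used. As a check of the code, 200 of 200 simulated summits placed inside gene windows were recovered. That outcome follows from where they were placed and bears only on the code. Alternatives changed the window, list, cluster distance, replicate and gene set.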

Additional observations from a re-analysis of the deposited data

How the results depend on the processing

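The share of tRNA genes with an IDR summit (8.82%) stayed within the replicate SD of 1.04 points in 6 of 12 alternatives. It was 1.96% with 0 bp on each side, 9.97% with 500 bp, 2.12% with the 50% of IDR regions of higher signal and 5.59% for genes of unique sequence, and, in lists chosen after seeing the data, 21.4% with the 3000 and 32.7% with the 5000 highest pooled regions. The difference of X minus autosomes (4.39 points) reversed to -0.27 with 0 bp and to -3.47 for unique sequences, and was 2.07 with the 50% of higher signal and 7.87 with 3000 regions. In single replicates it ranged from 3.60 to 6.86 points.

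The difference of clustered minus single genes (-1.26 points) has no stable sign. It was 0.33 with 500 bp, 1.37 with the 50% of higher signal, 2.44 with a cluster distance of 500 bp, 1.54 for autosomal genes and 0.50 to 0.86 in single replicates. It was -1.81 with 0 bp, -0.88 with 100 bp, -0.25 by overlap, -4.49 with 3000 regions, -4.22 with 5000, -1.97 outside promoter windows, -3.72 with a distance of 5000 bp and -6.04 for X genes. The splits by X and autosomes were chosen after seeing the data. The difference of intronic minus other genes (-1.35 points) was 0.53 for X genes, -4.76 for unique sequences and -5.50 to -0.79 in single replicates. It was -3.81 with 3000 and -3.82 with 5000 regions. Of its 16 alternatives, 13 kept the sign and stayed within the replicate SD of 3.33 points, which is larger than the difference itself. The whole replicate lists, in which the intronic share was the higher one, were not among the alternatives. The median summit position (-28.5 bp) was -59 bp with the 50% of higher signal and -20.5 to -14 bp in single replicates. The cause of these changes was not tested. No paired analysis was possible because the series has 1 group. Unknown depth and the lack of a control sample limit all of these values.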
